A study of Mus musculus with 7 samples.

Results

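Interleukin receptor chains are the membrane proteins through which white blood cells sense interleukins, and 36 of the 22180 genes measured here were taken as such chains. They were chosen by name: a gene entered if its symbol read Il, a number and r, or was Il6st, with Il7r and the receptor antagonist Il1rn left out. No level was required, so dim and bright chains were kept alike. By receptor class there were 8 chains of the IL-1 family, 8 that signal with the common gamma chain or bind IL-4 and IL-13, 7 of the IL-6 and IL-12 type, 6 of the IL-10 family, 5 for IL-17 cytokines, and 2 alpha chains that pair with the common beta chain. Il11ra1, Il11ra2, Il1rl1 and Il2rg, the common gamma chain itself, were not analysed here.

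Most interleukin receptors are pairs: a chain that recognises the cytokine and a shared chain that carries the signal, so that Il6st (gp130) serves IL-6 and its relatives, and Il10rb serves IL-10 and IL-22. Receptors of the IL-2, IL-4, IL-6, IL-10 and IL-12 classes signal through Janus kinases, which phosphorylate STAT transcription factors. Signalling receptors of the IL-1 family instead recruit the adaptor Myd88, and IL-17 receptors recruit the adaptor Traf3ip2 (Act1). In monocytes and macrophages IL-10 dampens inflammatory output, IL-4 drives alternative activation, and IL-6 and IL-1 amplify inflammation.

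The study asked how spleen monocytes of mice with wild-type EPCR, a receptor for protein C, respond to an antiphospholipid antibody and to agonists of nucleic-acid-sensing Toll-like receptors. RNA from 7 samples of 2 mice was measured on 7 Affymetrix Mouse Gene 2.0 ST arrays, 1 sample each. HL7G, a monoclonal antiphospholipid antibody, was given at 400 ng/ml to cells of mouse 1 and of mouse 2 (n = 2). Cells of mouse 1 alone received R848, which activates TLR7, at 2 µg/ml (n = 1), CpG B, a DNA oligonucleotide that activates TLR9, at 2.5 µM (n = 1), or poly I:C, a synthetic double-stranded RNA that activates TLR3, at 1 µg/ml (n = 1), and unstimulated cells came from both mice (n = 2). Stimulation lasted 3 h. The sources used here do not state the selection method of the monocytes or the culture time of the unstimulated samples.

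Values are log2 expression levels, so a difference of 1 is a 2-fold difference. A level belongs to its own probe set, and levels of different genes are not compared. The unstimulated array of mouse 1 stood apart from the stimulated arrays, and that of mouse 2 less so. Across all 22180 genes, correlation with the stimulated arrays was 0.716 to 0.861 for mouse 1 and 0.803 to 0.922 for mouse 2. Among the 5 stimulated arrays it was 0.921 to 0.960, and between the unstimulated arrays 0.925. The mean level of 5 abundant transcripts (Actb, B2m, Eef1a1, Gapdh, Ptprc) was 9.25 and 8.99 on the HL7G arrays and 8.43 to 8.69 on the agonist arrays, against 6.11 and 7.67 on the unstimulated arrays of mouse 1 and mouse 2. Of the markers of the labelled cell type, over the 7 arrays Ly6c2 ranged from 3.74 to 4.38, Ccr2 from 3.76 to 4.09 and Fcgr1 from 4.02 to 4.98. Itgam ranged from 4.55 to 4.90, Adgre1 from 4.54 to 4.99, Csf1r from 4.86 to 5.61, Cx3cr1 from 5.13 to 6.50, Cd68 from 5.41 to 6.20 and Lyz2 from 4.53 to 7.02. The 9 monocyte markers found averaged 5.08 on both HL7G arrays, against 4.79 and 5.06 on the unstimulated arrays. The 7 B cell markers averaged 6.74 and 6.86 on the HL7G arrays, against 5.43 and 5.80 on the unstimulated arrays, and the 6 T cell markers averaged 6.22 on both HL7G arrays, against 4.99 and 5.21 on the unstimulated arrays. In bulk RNA, fewer cells of a type and less RNA per cell cannot be told apart. The part of the unstimulated arrays, of the B and T cell markers and of the abundant transcripts in the differences below was not tested.

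The receptor chains split into a group of 16 that reached a log2 level of 5 on at least 1 array and 20 that did not. These 16 are 44.4% of the chains, and 50.1% of all genes reached that level. The 20 dim chains lay between 2.69 and 4.998 on every array. They hold all 8 IL-1 family chains (Il1r1, the signalling IL-1 receptor, Il1r2, its decoy, Il1rap, Il1rl2, Il18r1, Il18rap, Il1rapl1 and Il1rapl2). The others are Il2rb, Il13ra1, Il13ra2, Il5ra, Il12rb2, Il23r, Il31ra, Il20ra, Il20rb, Il22ra2, Il17rb and Il17re. In 3 chains the levels crossed the value of 5 on stimulated arrays only: Il2ra, Il6st and Il10ra, the ligand-binding chain for IL-10.

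HL7G was set against unstimulated cells to ask which chains change with the antibody. Il10ra, Il10rb and Il17ra rose, 0 chains fell, and the other 33 did not pass the test (limma, adjusted p under 0.05 over all 22180 genes). The 3 chains are 8.33% of the 36, and 8.32% of all genes rose in this comparison, so interleukin receptor chains were called higher as often as genes at large. Of all genes 1.51% fell. At an unadjusted p under 0.05, in either direction, there were 12 of the 36 chains and 6342 of the 22180 genes. The median difference was -0.06 over the 36 chains and -0.12 over all genes. By size, 6 chains (16.7%) were at least 2-fold higher with HL7G, where 8.58% of all genes were. Il10rb, at 0.9995 (1.999-fold), fell just short. It is counted below among the chains with a difference of 1.00 or more, which is read after rounding.

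**Figure D1:**
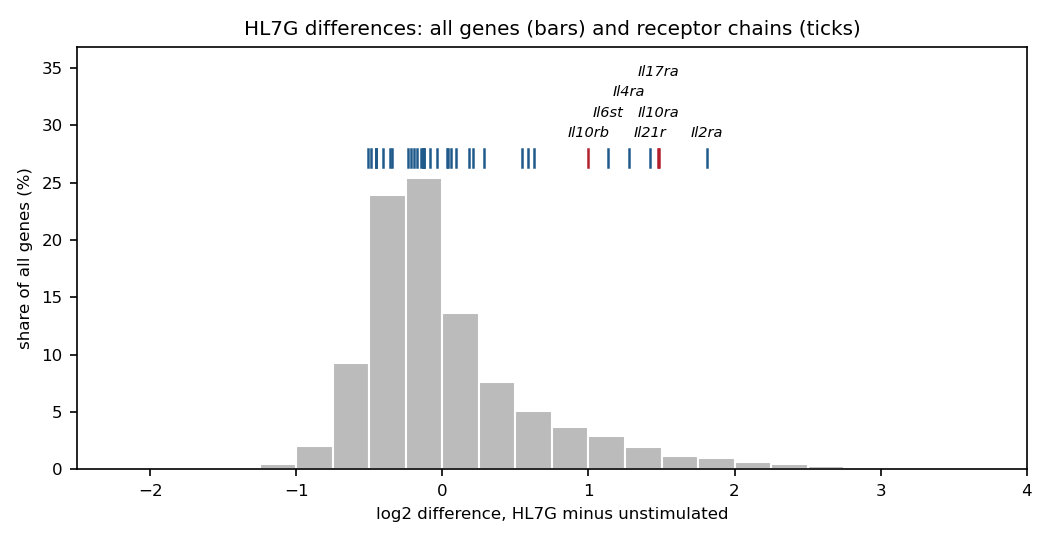
Log2 difference of HL7G minus unstimulated (x axis) for all 22180 genes, as bars giving the share of genes per bin of 0.25 (y axis, %), and for the 36 interleukin receptor chains, as ticks above the bars. Red ticks mark the 3 called chains and names mark the 7 chains with the largest differences, which run from 1.00 to 1.81. The other ticks lie between -0.51 and 0.63, over the bulk of the genes.

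The IL-10 receptor rose in both of its chains. Il10ra, which binds IL-10, stood at 5.97 and 5.35 on the HL7G arrays of mouse 1 and mouse 2, at 4.82 with R848, 4.74 with CpG B and 4.94 with poly I:C, against 3.94 and 4.42 on the unstimulated arrays. The HL7G arrays lay above all 5 others, and the agonist arrays lay between HL7G and unstimulated cells. Il10ra was 2.78-fold higher with HL7G (log2 difference 1.48 ± 0.27, SE, n = 2 arrays a group, adjusted p = 0.0194), by 2.03 in mouse 1 and 0.93 in mouse 2.

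Il10rb, the signalling chain shared by IL-10, IL-22 and the interferon lambda receptor, stood at 6.04 and 5.69 with HL7G, 5.71 with R848, 5.45 with CpG B and 5.23 with poly I:C, against 4.72 and 5.01 in unstimulated cells. All 5 stimulated arrays lay above both unstimulated ones, but the R848 array lay between the HL7G arrays. Il10rb was higher by 1.00 ± 0.22 with HL7G (adjusted p = 0.0307), by 1.32 in mouse 1 and 0.68 in mouse 2. With the mouse as a block, its adjusted p was 0.0507 and the call was lost. Its partners for other ligands did not pass the test: Il22ra1, which pairs with it to bind IL-22, ranged from 4.54 to 5.13 over the 7 arrays and differed by -0.45. The soluble IL-22 decoy Il22ra2 differed by 0.28, and the IL-20 chains Il20ra and Il20rb by -0.14 and 0.03.

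Among the 5 IL-17 receptor chains, only Il17ra passed the test. Il17ra, the chain common to receptors of IL-17 family cytokines, stood at 7.25 and 6.89 with HL7G, 6.58 with R848, 6.45 with CpG B and 6.60 with poly I:C, against 5.09 and 6.08 in unstimulated cells. Both HL7G arrays lay above the 3 agonist arrays and these above both unstimulated arrays, although the unstimulated arrays themselves differed by more than the HL7G arrays did. Il17ra was 2.79-fold higher with HL7G (1.48 ± 0.33, adjusted p = 0.0325), by 2.16 in mouse 1 and 0.80 in mouse 2. The chains that pair with it did not pass the test and had values below 0: -0.49 for Il17rb (the IL-25 receptor chain), -0.45 for Il17rd, -0.35 for Il17re (the IL-17C receptor chain) and -0.21 for Il17rc. Il17rc, the partner of Il17ra for IL-17A and IL-17F, ranged from 4.83 to 5.54 over the 7 arrays, and Il17rd from 4.58 to 5.32.

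The 3 calls rest on few arrays. Without the unstimulated array of mouse 1, Il10ra had an adjusted p of 0.172, Il10rb of 0.233 and Il17ra of 0.191, and 2 genes of 22180 were called in all. Without the unstimulated array of mouse 2, the adjusted p was 0.0538 for Il10ra and 0.0960 for Il10rb, and without the HL7G array of mouse 1 it was 0.0778 for Il10rb and 0.0563 for Il17ra. Without the HL7G array of mouse 2, in contrast, the differences were larger, at 1.79 for Il10ra, 1.17 for Il10rb and 1.66 for Il17ra. That fit leaves 1 HL7G array, and Il31ra differed by -0.81 in it. Under cyclic loess scaling Il17ra differed by 0.75 (adjusted p = 0.120) and under renewed quantile scaling by 0.94 (adjusted p = 0.0961).

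**Figure D2:**
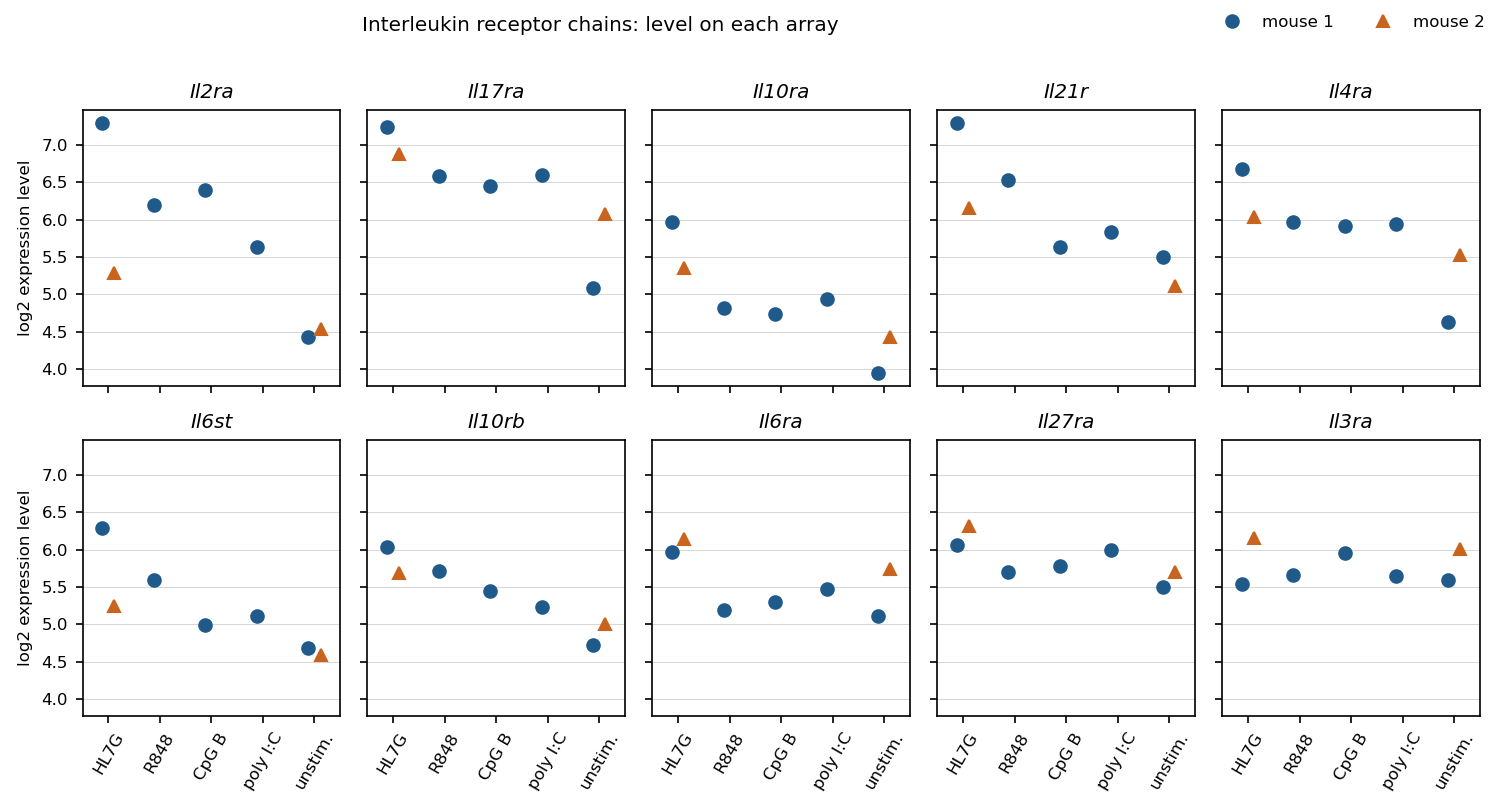
Log2 expression level (y axis) of the 10 interleukin receptor chains that were called or reached a level of 6, on each of the 7 arrays, by treatment (x axis); circles are mouse 1 and triangles mouse 2. In 8 of the 10 panels every stimulated array sits above both unstimulated arrays, with Il6ra and Il3ra as the exceptions, and Il2ra shows the widest gap between the HL7G arrays (7.30 and 5.28).

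Chains of the common gamma chain class held the largest differences without passing the test. Il2ra (CD25), which gives the IL-2 receptor its high affinity, stood at 7.30 and 5.28 with HL7G, 6.19 with R848, 6.40 with CpG B and 5.63 with poly I:C, against 4.43 and 4.53 in unstimulated cells. The unstimulated arrays agreed closely and all 5 stimulated arrays lay above them, but the HL7G array of mouse 2 was the lowest of the stimulated arrays. Il2ra differed by 1.81 ± 0.55 (3.50-fold, adjusted p = 0.0819), by 2.86 in mouse 1 and 0.75 in mouse 2, and its adjusted p was 0.0493 with the mouse as a block.

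Il21r, the IL-21 receptor, stood at 7.30 and 6.16 with HL7G, 6.53 with R848, 5.63 with CpG B and 5.83 with poly I:C, against 5.50 and 5.11 in unstimulated cells. The CpG B array lay just above the higher unstimulated array, and the R848 array between the HL7G arrays. Il21r differed by 1.42 ± 0.36 (2.68-fold), at an adjusted p of 0.0501 that lies at the threshold and was 0.0203 with the mouse as a block. Il4ra, the alpha chain shared by the IL-4 and IL-13 receptors, stood at 6.68 and 6.04 with HL7G, 5.97 with R848, 5.92 with CpG B and 5.94 with poly I:C, against 4.64 and 5.53 in unstimulated cells. The 3 agonist arrays lay close together, between the HL7G and the unstimulated arrays. Il4ra differed by 1.28 ± 0.34 (2.42-fold, adjusted p = 0.0566), by 2.05 in mouse 1 and 0.51 in mouse 2.

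The other 5 chains of this class had log2 differences within 0.24 of 0 and none passed the test. They are Il2rb, the signalling chain for IL-2 and IL-15 (0.06), Il15ra, which presents IL-15 (-0.13), Il9r (-0.04), Il13ra1 (-0.20) and the IL-13 decoy Il13ra2 (-0.24). Il15ra ranged from 4.98 to 5.68 and Il9r from 4.92 to 5.55 over the 7 arrays.

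Il4ra and Il21r are neighbours on chromosome 7 in the RefSeq gene order, and they are the only neighbouring receptor chains of the 9 such pairs here in which both differed by more than 1 with HL7G. Il2ra and Il15ra, neighbours on chromosome 2, differed by 1.81 and -0.13, and Il6st and Il31ra, neighbours on chromosome 13, by 1.13 and -0.45. The promoters of Il2ra, Il4ra and Il21r are shown because these chains had the largest differences among those matched in the RefSeq promoter table (build GRCm38.p6), which held 29 of the 36 chains, with Il10ra, Il10rb and Il17ra not matched. Each is 300 bases around the annotated start, read 5′ to 3′ on the + strand, and capitals mark matches to the NF-kB consensus on either strand: at chr2:11642542-11642841 for Il2ra, chr7:125552021-125552320 for Il4ra and chr7:125603179-125603478 for Il21r.
Il2ra: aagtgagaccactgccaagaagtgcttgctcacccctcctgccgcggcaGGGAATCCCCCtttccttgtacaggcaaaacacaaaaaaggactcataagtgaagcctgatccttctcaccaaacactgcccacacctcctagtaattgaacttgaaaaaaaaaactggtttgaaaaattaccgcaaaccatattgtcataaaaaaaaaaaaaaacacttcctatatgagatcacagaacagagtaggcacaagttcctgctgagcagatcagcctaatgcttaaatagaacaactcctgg
Il4ra: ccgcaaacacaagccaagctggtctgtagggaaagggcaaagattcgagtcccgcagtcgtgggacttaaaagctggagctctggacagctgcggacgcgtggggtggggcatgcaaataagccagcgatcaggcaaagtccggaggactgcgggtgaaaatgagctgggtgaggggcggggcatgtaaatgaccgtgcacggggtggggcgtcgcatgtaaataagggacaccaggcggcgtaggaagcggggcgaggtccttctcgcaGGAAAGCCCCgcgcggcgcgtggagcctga
Il21r: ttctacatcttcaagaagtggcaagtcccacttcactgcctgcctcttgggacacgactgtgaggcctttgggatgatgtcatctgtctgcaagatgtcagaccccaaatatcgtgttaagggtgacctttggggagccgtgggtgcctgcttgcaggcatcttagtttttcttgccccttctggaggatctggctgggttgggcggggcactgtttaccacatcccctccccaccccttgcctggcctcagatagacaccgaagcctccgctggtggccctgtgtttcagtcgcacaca

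The Il2ra promoter held overlapping matches to the NF-kB consensus starting at bases 50 and 51 of the printed stretch, and the Il4ra promoter a match at base 271, just after the start site. No match to any of 4 searched motifs was found in the Il21r and Il6st windows. Over the table, 8.46% of 32851 promoters held the NF-kB consensus, 8.30% the STAT site TTCNNNGAA (GAS), 8.56% the interferon response core GAAANNGAA and 7.81% the AP-1 site TGANTCA, searched on both strands, and overlaps between different motifs were allowed. Of the 33 promoters of the 29 chains, 5 held the NF-kB consensus (Il12rb2, Il1r1, Il22ra1, Il2ra and Il4ra), 4 the GAS site, 3 the interferon core and 6 the AP-1 site. A match describes letters in a window and is not a measured binding site.

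The IL-6 and IL-12 type chains had Il6st at their head, and none of the 7 passed the test. Il6st (gp130), the signalling chain for IL-6, IL-11 and related cytokines, stood at 6.29 and 5.24 with HL7G, 5.59 with R848, 4.99 with CpG B and 5.11 with poly I:C, against 4.67 and 4.59 in unstimulated cells. All 5 stimulated arrays lay above the closely spaced unstimulated ones. Il6st differed by 1.13 ± 0.33 (2.19-fold, adjusted p = 0.0709), by 1.61 in mouse 1 and 0.65 in mouse 2.

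Il6ra, which binds IL-6 and hands it to Il6st, stood at 5.96 and 6.15 with HL7G, 5.19 with R848, 5.30 with CpG B and 5.48 with poly I:C, against 5.11 and 5.74 in unstimulated cells. Here the agonist arrays lay between the unstimulated arrays, while both HL7G arrays lay above all 5 others. The HL7G difference of Il6ra was 0.63 ± 0.25 (adjusted p = 0.153). Il27ra, the IL-27 receptor chain that also pairs with Il6st, stood at 6.06 and 6.31 with HL7G, 5.71 with R848, 5.78 with CpG B and 5.998 with poly I:C, against 5.49 and 5.70 in unstimulated cells. Its HL7G difference of 0.59 ± 0.20 (adjusted p = 0.109) was nearly the same in mouse 1 (0.57) and mouse 2 (0.61), unlike the chains above. Receptor chains for IL-12, IL-23 and IL-31 had values below 0: -0.13 for Il12rb1, which ranged from 5.04 to 5.32 over the 7 arrays, -0.13 for Il12rb2, -0.51 for Il23r and -0.45 for Il31ra.

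Il3ra and Il5ra, the alpha chains that pair with the common beta chain, showed no difference that passed the test. Il3ra, which binds IL-3, stood at 5.54 and 6.15 with HL7G, 5.66 with R848, 5.95 with CpG B and 5.65 with poly I:C, against 5.59 and 6.01 in unstimulated cells. Its arrays ordered by mouse rather than by HL7G: both mouse 2 arrays lay above every mouse 1 array. The HL7G difference was 0.04 ± 0.27 (adjusted p = 0.928) for Il3ra, with a sign that turned under loess and quantile scaling (-0.32 and -0.32), and 0.09 ± 0.19 for Il5ra. The IL-1 family chains differed by -0.41 (Il1rapl1) to 0.55 ± 0.20 (Il1r2, adjusted p = 0.129). Il1r2 stood at 4.20 and 4.47 with HL7G, against 3.87 and 3.70 in unstimulated cells, and Il1r1 at 4.52 and 4.05 with HL7G, against 4.36 and 4.93 in unstimulated cells.

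**Figure D3:**
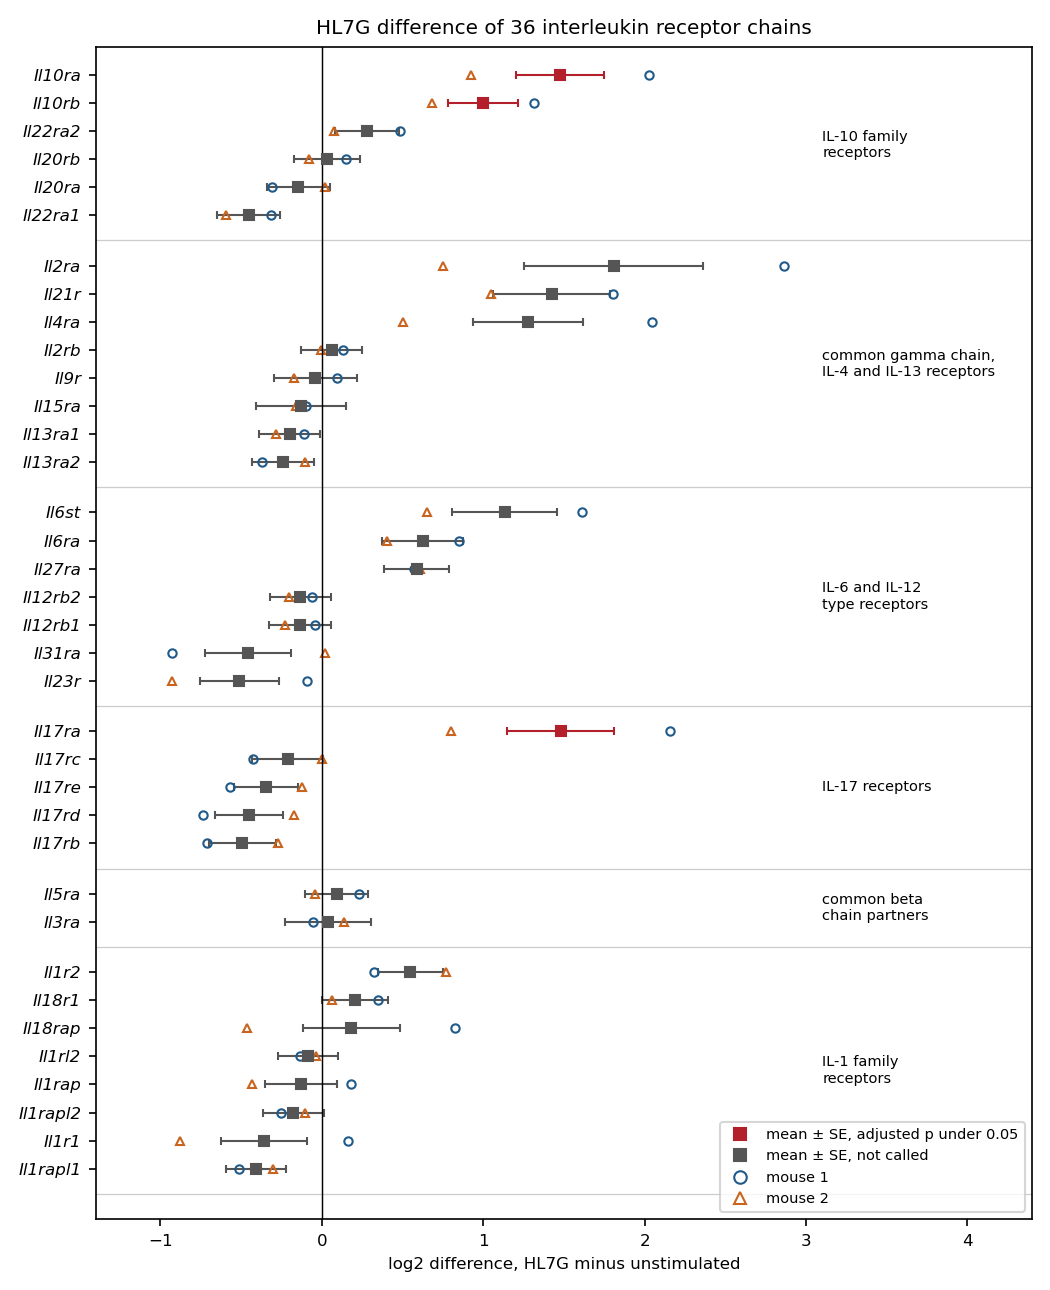
Log2 difference of HL7G minus unstimulated (x axis) for the 36 interleukin receptor chains, grouped by receptor class; squares with bars are the mean and standard error of the fit (n = 2 arrays a group), red where the adjusted p was under 0.05, and open circles and triangles are the differences within mouse 1 and mouse 2. The 7 largest differences (1.00 to 1.81) are all larger in mouse 1 than in mouse 2, and each class but the IL-1 family and the common beta chain partners holds at least 1 of them.

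Each of the 7 chains with a difference of 1.00 or more (Il2ra, Il17ra, Il10ra, Il21r, Il4ra, Il6st and Il10rb) was higher with HL7G in both mice, by 1.32 to 2.86 in mouse 1 and by 0.51 to 1.05 in mouse 2. The 7 were picked for the mean of these same differences, so the shared sign is no separate support. Over all 36 chains, both HL7G arrays lay above both unstimulated arrays in 12 chains (33.3%, against 25.6% of all genes) and below them in 11 (30.6%, against 38.0% of all genes). All 5 stimulated arrays lay above both unstimulated arrays in 8 chains (22.2%, against 15.5% of all genes): the 7 chains above and Il27ra. They lay below both in 5 dim or mid-level chains (13.9%, against 17.8% of all genes), Il13ra2, Il17re, Il1rl2, Il22ra1 and Il23r.

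R848, CpG B and poly I:C were each set against the same unstimulated arrays, with 1 array a stimulus whose spread was taken from the other groups. The agonist arrays are all from mouse 1, whereas the unstimulated mean also holds mouse 2, so differences within mouse 1 are given too, as values with no test. In limma no chain and 0 of the 22180 genes (0%) passed the test for R848, for CpG B or for poly I:C. Of the 36 chains and 22180 genes, 5 chains and 4216 genes had an unadjusted p under 0.05 for R848, in either direction. For CpG B these were 1 chain and 2385 genes, and for poly I:C 2 chains and 1750 genes. The median difference over the 36 chains was -0.11 for R848, -0.01 for CpG B and -0.02 for poly I:C, and over all genes -0.04, -0.06 and -0.06 in the same order of stimuli.

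Leaving out either HL7G array changes no agonist difference and leaves the unstimulated pair as the only replicated group. Calls for the agonists in that fit hold no spread among stimulated arrays, so none is read here as a result about a chain.

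By size, Il2ra was at least 2-fold higher with every agonist: 1.71 ± 0.68 with R848, 1.92 ± 0.68 with CpG B and 1.15 ± 0.68 with poly I:C. With the mouse as a block these were 1.23, 1.44 and 0.67. With R848, 2 chains (5.56%, against 6.22% of all genes) were at least 2-fold higher, Il2ra and Il21r (1.22 ± 0.44). With CpG B only Il2ra was (2.78%, against 4.10% of all genes), and with poly I:C 2 chains were (5.56%, against 3.15% of all genes), Il2ra and Il17ra (1.02 ± 0.40). These shares lie near those of all genes. Within mouse 1 there were 4 such chains with R848 (11.1%, against 7.48% of all genes), 3 with CpG B (8.33%, against 5.22%) and 3 with poly I:C (8.33%, against 4.24%). There Il17ra differed by 1.49 with R848, 1.36 with CpG B and 1.51 with poly I:C, and Il4ra by 1.33, 1.28 and 1.30. Both chains were lower on the unstimulated array of mouse 1 than on that of mouse 2.

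Among the 3 agonists, Il21r and Il6st were highest with R848 (1.22 and 0.96) and lower with CpG B (0.33 and 0.36) and poly I:C (0.53 and 0.48). With the mouse as a block, Il21r differed by 0.84 with R848, -0.05 with CpG B (a turned sign) and 0.15 with poly I:C, and Il6st by 0.68, 0.077 and 0.19. Il4ra took nearly the same value with each agonist, 0.88 with R848, 0.84 with CpG B and 0.85 with poly I:C. Il10rb differed by 0.85 with R848, 0.58 with CpG B and 0.37 with poly I:C, and Il10ra by 0.64, 0.56 and 0.75. The direct difference between the mean of R848 and CpG B and poly I:C was called for no chain and 0 of 22180 genes (0%, limma). At an unadjusted p under 0.05 there were 0 of 36 chains and 585 of the 22180 genes. Among the 7 chains the largest direct difference was that of Il2ra, 0.66 ± 0.68. R848 was not tested against CpG B, so the order of these stimuli is given as values only.

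**Figure D4:**
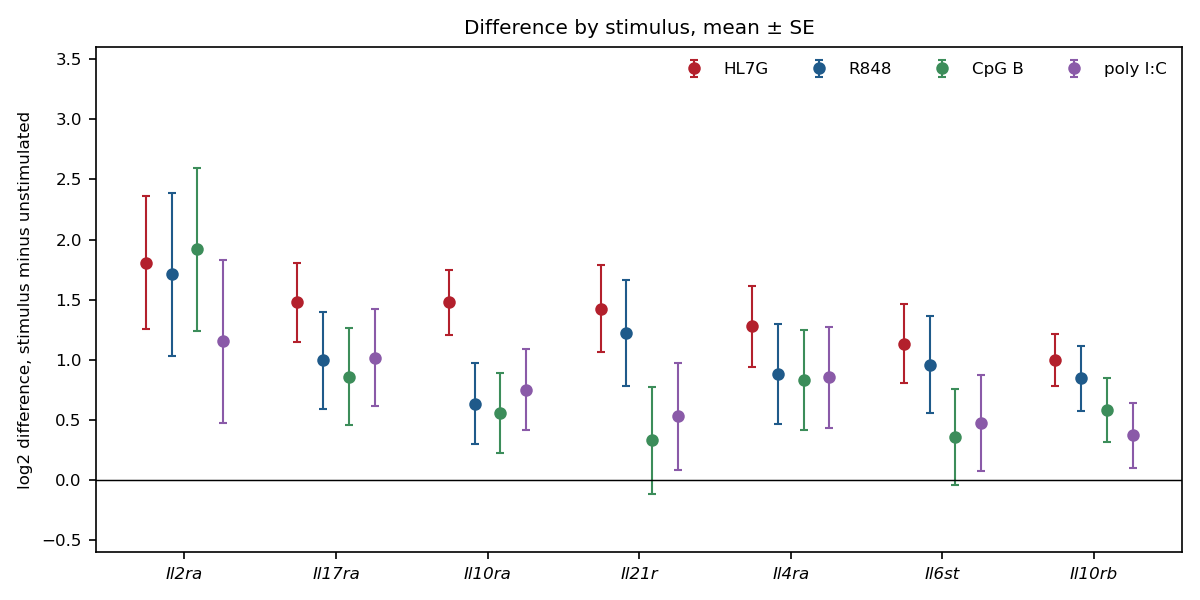
Log2 difference of each stimulus minus unstimulated (y axis) for the 7 interleukin receptor chains with an HL7G difference of 1.00 or more (x axis); points and bars are the mean and standard error of 1 fit, with n = 2 arrays for HL7G and unstimulated cells and n = 1 for each agonist. The 4 comparisons share their unstimulated arrays. Il10ra shows HL7G (1.48) above the agonists (0.56 to 0.75), and Il2ra shows HL7G (1.81) beside R848 (1.71) and CpG B (1.92).

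HL7G was also set directly against the mean of the 3 agonists, a comparison whose difference holds no unstimulated array, although these arrays enter its estimate of the spread. No chain and 0 of 22180 genes (0%) passed the test in limma, and 2 of 36 chains and 2093 genes had an unadjusted p under 0.05. These 2 chains are Il10ra, higher with HL7G by 0.83 ± 0.25 (adjusted p = 0.415), and Il6ra, higher by 0.73 ± 0.23 (adjusted p = 0.418). Both HL7G arrays lay above all 3 agonist arrays in 8 chains (22.2%, against 13.4% of all genes): Il10ra, Il17ra, Il4ra, Il6ra, Il27ra and the dim Il1r2, Il5ra and Il22ra2. For Il2ra the direct difference was 0.21 ± 0.50, and it was -0.79 without the HL7G array of mouse 1. Without the HL7G array of mouse 2 it was 1.22, and the direct difference was 1.30 for Il21r and 1.06 for Il6st. The R848, CpG B and poly I:C arrays are all from mouse 1, so in this comparison the HL7G array of mouse 2 has no agonist array of its own mouse.

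A list of interleukin ligands and antagonists was also read, and some, such as Il7, Il11 and Il33, have their binding chain outside the 36. Of the 35 found on the same arrays, 0 fell with HL7G (against 1.51% of all genes). The median difference was -0.05, against -0.12 over all genes. The 4 that rose make 11.4%, against 8.32% of all genes. They are Il1b (2.16 ± 0.46), Il1a (1.82 ± 0.21), Il6 (1.62 ± 0.21) and Il12a, a subunit of IL-12 (0.97 ± 0.20). The chains that bind them, Il1r1, Il6ra and Il12rb1 with Il12rb2, did not pass the test. Il10 itself stood at 4.53 and 4.33 with HL7G, against 4.41 and 3.91 in unstimulated cells (0.27 ± 0.23, adjusted p = 0.452).

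Downstream of the receptors, 10 of 23 JAK-STAT and Myd88 pathway genes rose with HL7G (43.5%, against 8.32% of all genes) and 0 fell, with a median difference of 0.71. The largest were Stat2 (2.75 ± 0.41), the kinases Jak1 (2.23 ± 0.31) and Jak2 (2.11 ± 0.28), and Stat4 (2.03 ± 0.25), and the list averaged 6.11 and 5.79 on the HL7G arrays, against 4.92 and 5.03 on the unstimulated arrays. Of 18 other cytokine receptor chains, 3 rose (16.7%, against 8.32% of all genes) and 0 fell, with a median difference of 0.09: Il7r (2.58 ± 0.41), Ifngr1 (1.53 ± 0.19) and Ifngr2 (1.06 ± 0.22). Ifnar2, a chain of the type I interferon receptor, differed by 1.12 ± 0.29 (adjusted p = 0.0506). As among the interleukin receptors, these calls stand beside those of the marker lists: 5 of 7 B cell genes, 3 of 6 T cell genes and 3 of 5 abundant transcripts rose with HL7G, as did Lyz2 of 9 monocyte genes, with median differences of 1.33 for the B cell genes, 1.01 for the T cell genes and 0.16 for the monocyte genes. Gapdh fell by 1.03. Of the other marker lists, S100a8 of 6 neutrophil genes and 1 of 6 stromal and endothelial genes (Pecam1) rose, and none of 6 NK cell genes, 6 dendritic cell genes or 7 genes of eosinophils, basophils and mast cells passed the test.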

How the data were processed

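Each deposited value is a log2 expression level per probe set and array. RMA, Transcriptome Analysis Console and Affymetrix Expression Console are named in the submitters' processing notes, without version numbers. The 41345 probe sets were named through GEO's platform annotation, 23521 of them with a single symbol, and 23328 of these were found in RefSeq (GRCm38.p6). Of several probe sets of a gene the one with the highest mean was used, which among the chains concerned Il1rap. Per the labels, TRIzol was used for RNA extraction and the WT PLUS kit for sample preparation, and an IgG condition named there was not analysed here.

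All 7 arrays entered 1 limma 3.58.1 fit (R 4.3.3) with 5 groups and no level filter, 2 residual and 5.48 prior degrees of freedom, 2-sided tests, and Benjamini-Hochberg adjustment over 22180 genes. Calls were made below an adjusted p of 0.05. Errors are standard errors of this fit. The number of arrays and of mice (2) limits the precision. The script was tested on simulated data. Every chain was named, those called or at 6 or more on an array with all values, those at 5 or more with a range, and up to 4 genes of each other list, by size of the HL7G difference. Il10, Ifnar2 and, among the dim chains, Il1r1 and Il1r2 were given values after these were seen.

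The chains, lists and tests were chosen with earlier results of these data known. Same-numbered arrays come from the same mouse, so the numbers pair the samples. The main fit did not use this pairing, and the replicate block (mouse) did. With that block 4 of 36 chains and 1688 of 22180 genes were called higher with HL7G. The mouse 2 minus mouse 1 differences of HL7G and of unstimulated cells had r = -0.12 across genes.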

Additional observations from a re-analysis of the deposited data

How the results depend on the processing

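The 6 comparisons were repeated in 12 other settings. Of these, the crossed replicate block pairs HL7G of each mouse with the unstimulated array of the other. It was added after seeing the data, as were the agonist values within mouse 1. The crossed block goes against the mouse numbers of the labels, so its calls are no support for any chain. The 7 chains with HL7G differences of 1.00 or more, picked for size in these data, were higher with HL7G in all 12 settings. Both blocks, the level filter alone, the variance trend and the mean of probe sets cannot change these differences. Their sign could turn only under the scalings and when an array was left out. For HL7G the main fit called 3 of 36 chains and 2181 of 22180 genes. The crossed block called 7 chains and 3318 genes, and a variance trend 5 chains and 2517 genes. All these chains were higher. Calls also moved when an array was left out, which leaves 1 array in a group. The replicate block (mouse) called Il21r (adjusted p = 0.0203) and Il2ra (0.0493), lost Il10rb (0.0507), and changed no other of the chains' calls for HL7G. Il21r was also called with a level filter, the mean of probe sets, a variance trend and quantile scaling, and Il2ra with quantile scaling. The crossed block called both chains as well. The loess and quantile settings include the level filter, which Il10ra, Il2ra and Il6st passed on stimulated arrays only. Calls of these 3 chains in the filtered settings are therefore no added support. With an HL7G array left out, the spread in the agonist comparisons comes from the unstimulated pair alone. For R848, with 0 chains called in the main fit, the crossed block called 3 of 36 chains and 1648 of 22180 genes. For CpG B it called 2 chains and 682 genes. For poly I:C and for HL7G against the agonists it called 0 chains.

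Signs turned as follows. Il3ra with HL7G gave -0.32 under both loess and quantile scaling, and -0.27 to 0.35 when an array was left out. Il2ra for HL7G against the agonists gave -0.31 with the crossed block, -0.11 under quantile scaling and -0.79 to 1.22 when an array was left out. Il21r with CpG B gave -0.050 with the replicate block, and Il4ra for R848 and CpG B against poly I:C gave -0.077 under loess and -0.089 under quantile scaling. The cause was not tested.

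Over all genes 2181 were called for HL7G, 3318 with the crossed block, 4072 without the HL7G array of mouse 2, 766 without the unstimulated array of mouse 2 and 2 without that of mouse 1. For R848, where 0 were called, the replicate block called 2, a variance trend 8, loess 51, quantile scaling 575, the crossed block 1648 and the fits without an array 0 to 2031. For CpG B loess called 2, quantile scaling 120, the crossed block 682 and the fits without an array 0 to 750, and for poly I:C the replicate block called 1, quantile scaling 11, the crossed block 367 and the fits without an array 0 to 338. For HL7G against the agonists the crossed block called 1 and the fits without an array 0 to 361. Of the HL7G calls 84.6% were higher, and 89.6% with the level filter alone, against 68.7% under loess and 57.6% under quantile scaling, which moved the median of all genes passing the level filter to -0.08 and -0.12, where it was 0.06 before.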
